A study of Mus musculus with 6 samples.

Results

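The genes described here are the members of 11 families of patterning transcription factors outside the Hox clusters: Tbx, Pax, sine oculis homeobox (such as Six2), Lhx, Gata, Sox, Irx, Meis, Pitx, Otx and Emx. They were taken by name, as every row of the deposited gene table whose symbol is a family name followed by a number, which gave 77 of 23358 genes. The RNA came from calvaria (skull vault bone) of mice 2 to 3 days old, digested for 20 minutes with 2 mg/ml type II collagenase plus 0.005% trypsin. Of the 6 RNA-seq libraries, 3 were labelled wild type (WT 14, WT 27 and WT 29). The other 3 were labelled as an Ezh2 conditional knockout (cKO 8, cKO 10 and cKO 37). In the labels each number follows a P, and what these stand for is unstated. Both labels carry the tag Osx, which is another name for the osteoblast lineage gene Sp7. The labels give neither the deleted part of Ezh2, nor the share of cells in which it was lost, nor whether the WT animals carry Cre, nor the strain or sex, and whether each library is a separate animal is also unstated, so each p rests on a spread between libraries that may be technical.

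These factors bind DNA through a homeodomain (the sine oculis homeobox genes, Lhx, Irx, Meis, Pitx, Otx, Emx), a paired domain (Pax), a T-box (Tbx), an HMG box (Sox) or zinc fingers (Gata), and they set regional and cell identity in the embryo. In most tissues only some members are active, and the start sites of many of the inactive ones are known as sites of Polycomb repressive complex 2 (PRC2), whose catalytic subunit is Ezh2 and which places a repressive methyl mark on histone H3. The comparison of cKO with WT asks whether members that are off in calvaria were detected when Ezh2 was targeted, and whether the active ones moved.

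The libraries held 60449016 to 95439578 counts over all genes and 18108 to 18427 genes with a count, and every count was even, so each counted unit added 2. Ezh2 itself was 20.9 ± 0.68 counts scaled to library size (CPM) in WT and 19.9 ± 0.69 in cKO (mean ± SD, n = 3 per group), a log2 fold change of -0.07 ± 0.07. All log2 fold changes are cKO relative to WT, with the standard error. The counts cover the whole gene and so do not check the labels. Osteoblast markers (11 genes) summed to between 53759 and 107883 CPM, while epithelial and skeletal muscle markers summed to at most 5.41 and 5.84 CPM. Of 93 tested marker genes of 14 cell types, 1 rose and 3 fell with edgeR, where 5.96% of all tested genes rose and 6.45% fell. The gene that rose was a suture mesenchyme marker, and those that fell were 1 neuronal, 1 osteoblast and 1 meningeal marker. The summed ranges of the groups overlapped in 13 of the 14 lists; the exception was the osteoblast list, higher in all 3 WT libraries. As a ratio of the highest to the lowest library within a group, cartilage markers differed most of the 14 lists, from 4055 to 12101 CPM in WT and from 2138 to 9442 CPM in cKO.

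The skull vault expressed a small part of these families at high level. Levels between genes are compared here per length, as the deposited RPKM (reads per kilobase of gene, scaled to library size). Of the 77 members, 24 had a mean RPKM of at least 1 over the 6 libraries, 22 more were lower but abundant enough to test, and 31 were too scarce to test. Of the 24, 11 were Sox genes, 4 sine oculis homeobox genes, 3 Tbx, 3 Meis, 2 Irx and 1 Pax, and no Lhx, Gata, Pitx, Otx or Emx gene reached that level. Of the 46 tested, 40 were above the low-count limit in all 3 libraries of both groups, and the other 6 were scarce. Of these 6, Gata6 and Lhx2 were above it throughout WT only, and Irx1 and Pax3 throughout cKO only. Sox15 and Tbx21 were above it throughout neither group.

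**Figure D1:**
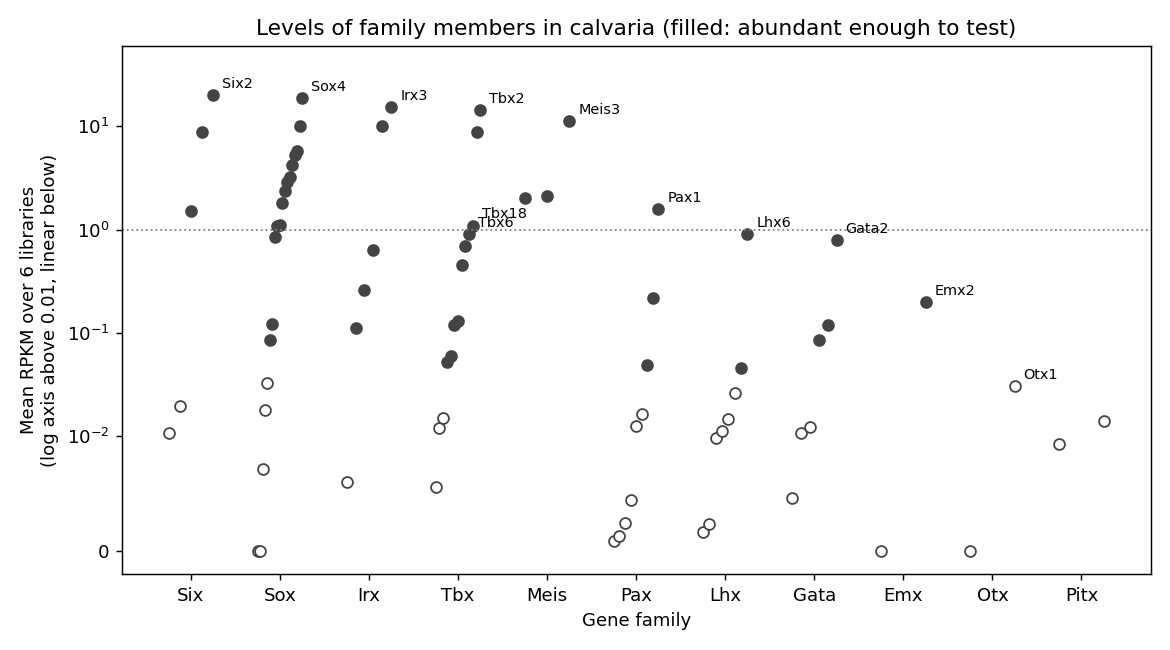
Mean deposited RPKM over the 6 libraries (vertical axis, logarithmic above 0.01 and linear below) for 75 of the 77 members, grouped by family along the horizontal axis; filled points were tested, open points were too scarce, and the dotted line marks an RPKM of 1. Six2, Sox4, Irx3 and Tbx2 stand at the top, and only open points lie at 0.

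Six2, a homeobox gene of craniofacial and kidney progenitors, was the highest member at an RPKM of 20.7 ± 2.89 in WT and 19.3 ± 1.07 in cKO. Sox4, an HMG-box gene of progenitor cells, followed at 20.5 ± 2.3 and 16.9 ± 2.31, and Irx3, an Iroquois homeobox gene, at 15.9 ± 1.22 and 14.9 ± 1.77. Next came Tbx2, a T-box repressor of limb and craniofacial mesenchyme, at 14.5 ± 1.84 and 14.1 ± 1.75, and the TALE homeobox gene Meis3 at 11 ± 0.626 and 11.5 ± 1.23. The ranges of Six2 and Sox4 overlapped in WT and in cKO, as did those of Irx3 and Tbx2. Library by library, Six2 lay above Sox4 throughout cKO (18.3, 20.4 and 19.1 against 15.9, 19.6 and 15.3 RPKM in cKO 8, cKO 10 and cKO 37). In WT the order of Six2 and Sox4 varied between libraries, and that of Irx3 and Tbx2 varied in both groups. Below them lay Sox18 (10.2), Irx5 (9.98), Six5 (8.91) and Tbx15 (8.82), given as mean RPKM over all 6 libraries.

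Genes that lie side by side in the genome could differ widely in level. Six2 (chromosome 17, 85684268 to 85688254, mm10) and Six3, an eye and forebrain gene (85620834 to 85626191), are 58.1 kb apart, and Six3 had 0 to 6 counts in a WT library and 2 to 8 in a cKO library, or a mean RPKM of 0.0108. The stretches of 250 bases before their starts are shown because CG-rich starts are a known feature of PRC2 target genes, and they are an active and a nearly silent member of the same locus. They come from RefSeq, build GRCm38.p6 (the assembly also called mm10), are written 5′ to 3′ on the strand of the gene and have every CG in capitals. That of Six2 lies at chr17:85688255-85688504 (minus strand) and that of Six3 at chr17:85620584-85620833 (plus strand).
Six2: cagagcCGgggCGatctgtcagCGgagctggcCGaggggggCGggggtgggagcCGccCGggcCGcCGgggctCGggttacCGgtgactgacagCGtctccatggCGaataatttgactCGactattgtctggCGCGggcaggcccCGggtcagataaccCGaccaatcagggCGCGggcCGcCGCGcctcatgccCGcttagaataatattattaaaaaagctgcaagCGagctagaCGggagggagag
Six3: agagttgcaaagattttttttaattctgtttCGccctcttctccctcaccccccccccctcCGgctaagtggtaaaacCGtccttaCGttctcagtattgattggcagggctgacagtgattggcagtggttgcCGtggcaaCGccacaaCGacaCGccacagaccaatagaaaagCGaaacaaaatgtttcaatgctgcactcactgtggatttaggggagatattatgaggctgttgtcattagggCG
The letters CG, which read the same on both strands, occurred 26 times before Six2 and 10 times before Six3. A start was found in the RefSeq table for 55 of the 77 members, and where a gene had several the most CG-rich was taken. The median was 16 CG in 250 bases, against 11 over the 15717 genes of the deposited table with a start there, and 76.4% of members against 54.3% of those genes held at least 10. The 16 matched members with an RPKM of at least 1 had a median of 13, the 14 scarcer tested ones 18 and the 25 untested ones 16, so both active and inactive members had CG-rich starts.

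Neighbours also differed in level in some of the other clusters and were low together in others. In the Irx cluster on chromosome 8, Irx3 and Irx5 had mean RPKM values of 15.4 and 9.98 and Irx6 of 0.639, and on chromosome 13 Irx1, Irx2 and Irx4 had only 0.112, 0.26 and 0.00606. Tbx2 and the limb gene Tbx4, 48.1 kb apart on chromosome 11, stood at 14.3 and 0.132. Tbx3 and Tbx5, 150 kb apart on chromosome 5, stood at 0.461 and 0.0527. Six4 and Six6, both on chromosome 12, stood at 1.52 and 0.0197.

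None of the 46 tested members passed an adjusted p of 0.05 with edgeR's quasi-likelihood test, where 12.4% of all 16089 tested genes did (5.96% higher and 6.45% lower in cKO). With upper-quartile scaling the balance of all calls moved from 48% to 60.9% higher. At an unadjusted p under 0.05 there were 11 members, 23.9%, against 29.1% of all genes (6 higher against 14.5%, and 5 lower against 14.6%). The count of 0 depends on the tool and its settings. DESeq2 called 4 members, Tbx6 and Tbx18 higher and Sox4 and Pax1 lower, against 15.5% of all genes (7.32% higher, 8.19% lower), and 8 members (17.4%) had an unadjusted p under 0.05 against 27.7%. Limma voom called 0 against 11.3% (5.63% higher, 5.68% lower), with 10 members (21.7%) at an unadjusted p under 0.05 against 29.1%. Without the filter on low counts edgeR called 2 of 73 members, against 10.7% of all genes, and at an adjusted p of 0.1 it called 5 (10.9%, against 20.4% of all genes). Of the 46, 24 had a log2 fold change above 0 and 22 below. Their median was 0.05, against 0.01 over all tested genes, and it turned to between -0.04 and -0.01 without WT 14, cKO 8, cKO 10 or cKO 37. In bulk tissue a lower value can mean fewer cells of a type or less RNA per cell, and these cannot be told apart.

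Precision followed level. The 24 members with an RPKM of at least 1 had a median standard error of 0.10 on the log2 scale and a median absolute log2 fold change of 0.11, and the 95% interval lay inside a 1.5-fold difference in either direction for 19 of them and inside 2-fold for 21. For the 22 scarcer tested members the median standard error was 0.42, and only 2 intervals lay inside 1.5-fold and 6 inside 2-fold. Over all 46, 45.7% of intervals lay inside 1.5-fold, against 66.4% of all tested genes, and 58.7% inside 2-fold, against 83.8%.

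**Figure D2:**
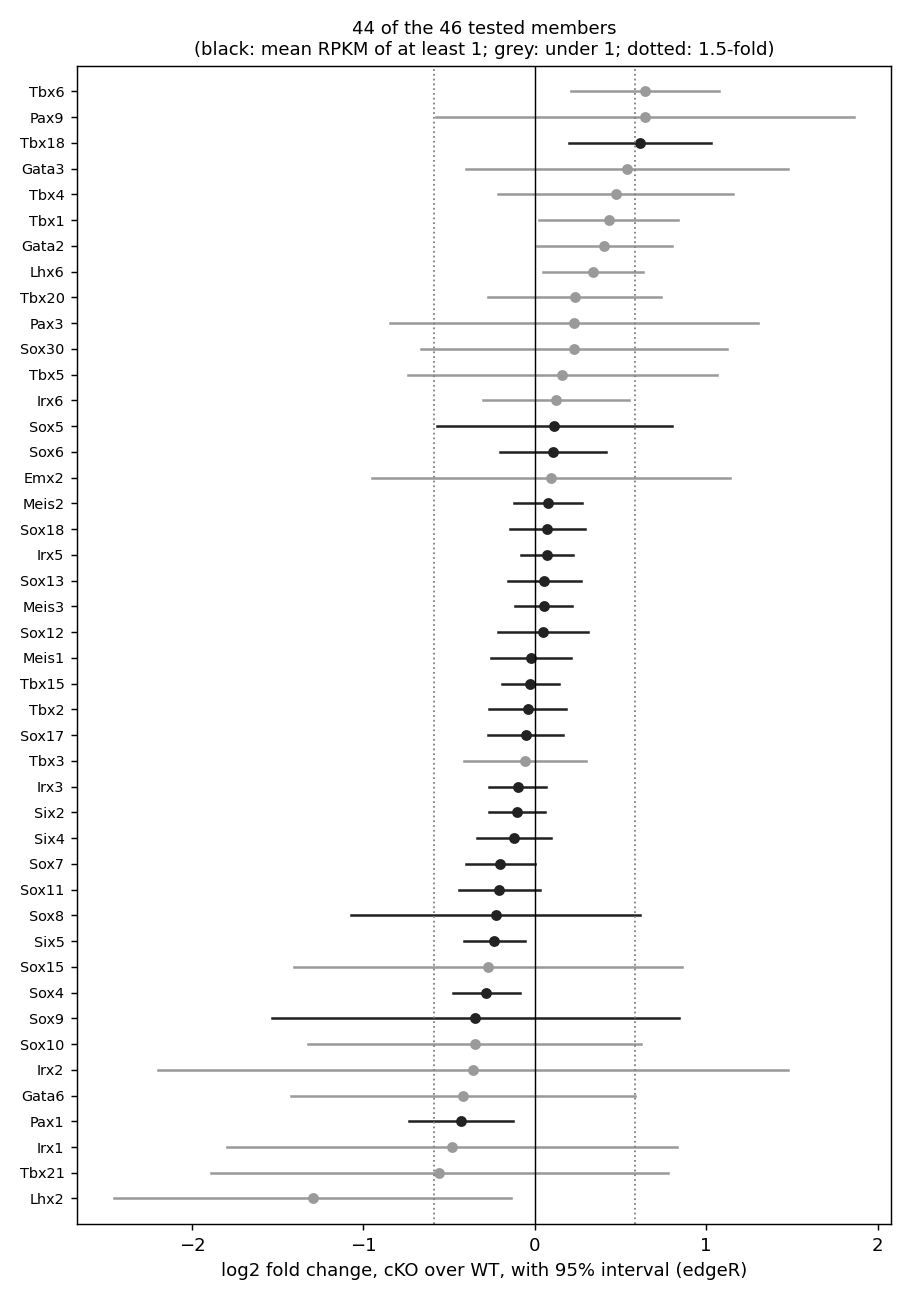
The log2 fold change of cKO over WT (horizontal axis) with its 95% interval from edgeR for 44 of the 46 tested members, ordered by value; black marks a mean RPKM of at least 1, grey a lower one, and the dotted lines 1.5-fold. Black intervals are narrow and mostly cross 0, those of Sox9, Sox8 and Sox5 being wider, and that of Irx2 is among the widest grey ones.

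In 10 of the 46 members (21.7%) the 3 cKO values did not overlap the 3 WT values, 6 above and 4 below, against 34.6% of all tested genes (17.2% above and 17.4% below). These were the 10 members with the smallest p.

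Among the T-box genes, the 3 with the smallest p were all higher in cKO. Tbx18 (chromosome 9, 87702800 to 87731260), a gene of paraxial and skull mesenchyme, read 6.78, 4.98 and 4.5 CPM in WT (in the order 14, 27, 29) and 7.84, 10.2 and 6.86 CPM in cKO (in the order 8, 10, 37), the orders kept below. WT 14 and cKO 37 nearly met, and cKO 10 was the highest. The difference was 1.53-fold (log2 0.61 ± 0.19, edgeR adjusted p = 0.0589), and it passed without WT 14 (0.0264) or without cKO 37 (0.042). Omission of any other library left the adjusted p at 0.135 to 0.173. Over the omissions the log2 fold change ran from 0.43 to 0.81. Tbx6 (chromosome 7, 126781483 to 126785548), a gene of early paraxial mesoderm, read 1.5, 1.72 and 1.7 CPM in WT and 2.6, 1.97 and 3.09 CPM in cKO, so cKO 10 lay nearest to WT. It was 1.56-fold higher (0.64 ± 0.20, adjusted p = 0.0544) and passed without cKO 10 (0.0326), when scaled by upper quartiles (0.0493), and with no filter on low counts (0.0487). Without any other single library its edgeR adjusted p was 0.106 to 0.155. Tbx1, a gene of the pharyngeal arches, read 1.39, 1.35 and 1.52 CPM in WT and 1.94, 1.68 and 2.13 CPM in cKO (0.43 ± 0.18, adjusted p = 0.148). The more abundant T-box genes lay near 0: Tbx2 at -0.04 ± 0.10 and Tbx15, a partner of Tbx18 in skeletal development, at -0.02 ± 0.08. Their edgeR intervals over all 6 libraries lay inside 1.5-fold (-0.27 to 0.18 and -0.19 to 0.14), and both signs turned under some settings.

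The starts of Tbx18 and Tbx6, which had the smallest p-values of all members and were both higher, are shown beside that of Pax1, the lower gene with the largest fold among members with an RPKM of at least 1. They lie at chr9:87731261-87731510 (minus strand), chr7:126781233-126781482 (plus strand) and chr2:147364744-147364993 (plus strand), 250 bases each, from RefSeq on GRCm38.p6 with every CG in capitals.
Tbx18: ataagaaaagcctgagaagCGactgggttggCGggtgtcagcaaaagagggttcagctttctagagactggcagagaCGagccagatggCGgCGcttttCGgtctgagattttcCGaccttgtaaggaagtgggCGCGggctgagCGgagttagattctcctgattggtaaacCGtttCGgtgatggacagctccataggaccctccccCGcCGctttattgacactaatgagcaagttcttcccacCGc
Tbx6: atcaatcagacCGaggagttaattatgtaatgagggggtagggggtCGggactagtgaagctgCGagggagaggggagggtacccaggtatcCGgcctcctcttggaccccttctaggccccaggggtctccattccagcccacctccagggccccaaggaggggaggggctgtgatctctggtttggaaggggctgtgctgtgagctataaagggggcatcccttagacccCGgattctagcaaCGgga
Pax1: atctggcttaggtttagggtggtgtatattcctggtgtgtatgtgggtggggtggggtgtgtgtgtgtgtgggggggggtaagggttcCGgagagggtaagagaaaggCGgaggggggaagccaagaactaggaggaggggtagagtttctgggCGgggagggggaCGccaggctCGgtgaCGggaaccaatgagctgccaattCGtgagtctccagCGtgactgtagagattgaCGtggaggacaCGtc
CG occurred 15 times before Tbx18, 6 times before Tbx6 and 10 times before Pax1, so the pair of higher genes was not alike in this feature. The annotation (GENCODE on the same build) places an unclassified transcript, D030062O11Rik, on the opposite strand over 20.6% of the exonic bases of Tbx18, and the antisense gene AI646519 over 4.07% of those of Pax1. Whether counting used strand is unknown from the labels, and reads of such pairs cannot be told apart. The shares are of all GENCODE exons of a gene and were not computed for the counted gene models.

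Of the Pax genes, which carry a paired domain, Pax1 was the highest. Pax1 (chromosome 2, 147364994 to 147375048), a gene of sclerotome and pharyngeal pouches, read 6.72, 6.13 and 6.33 CPM in WT and 5.67, 4.51 and 4.06 CPM in cKO. All cKO libraries were lower and cKO 8 was the nearest to WT. The fold change was 0.741 (log2 -0.43 ± 0.14, edgeR adjusted p = 0.0633), and it passed without cKO 8 (0.048). With any other library left out, the adjusted p was 0.108 to 0.158. Pax9, its close relative, was uneven, at 1.12, 0.286 and 0.37 CPM in WT and 0.534, 1.26 and 0.962 CPM in cKO (0.64 ± 0.53, adjusted p = 0.473), with overlapping groups. Without single libraries its log2 fold change ran from 0.32 (without WT 27) to 1.47 (without WT 14, edgeR adjusted p = 0.0589). The 6 other Pax genes outside Pax3 had between 0 and 8 counts in any library. They include Pax6 of the eye, Pax2 and Pax8 of the kidney and Pax7 of muscle precursors.

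The sine oculis homeobox genes, whose products act with Eya cofactors, differed little. Six5 read 34, 39.9 and 36.7 CPM in WT and 33.6, 32 and 28.3 CPM in cKO (log2 -0.24 ± 0.08, edgeR adjusted p = 0.0784), with WT 14 and cKO 8 close together. Six4 was -0.12 ± 0.10 with overlapping groups (adjusted p = 0.46). Six2 was -0.10 ± 0.07 (adjusted p = 0.388), and its interval of -0.27 to 0.06 lay inside 1.5-fold. Six3 and Six6 had at most 12 counts in a library.

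**Figure D3:**
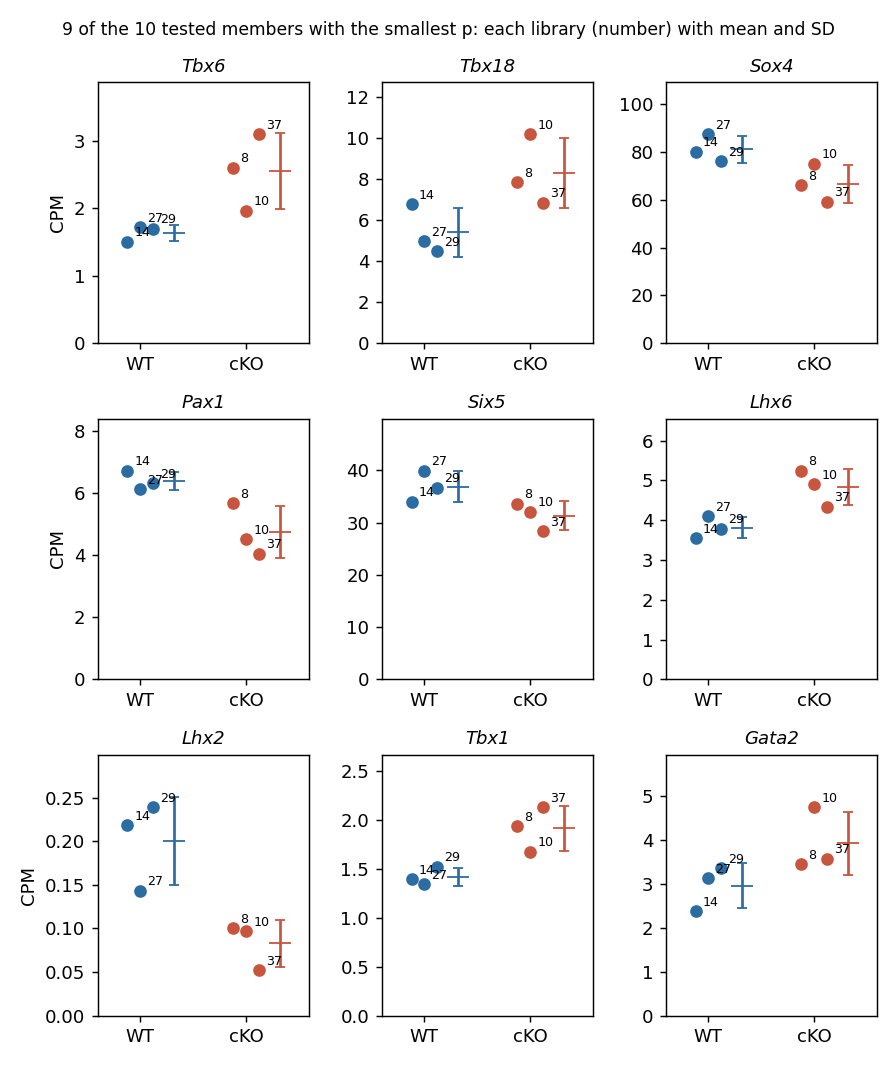
TMM-scaled CPM (vertical axes from 0) in each library, marked by its number, for 9 of the 10 tested members with the smallest p, with the mean and SD of each group (n = 3) beside the points. The groups do not overlap in any panel; cKO is above WT for Tbx6, Tbx18, Lhx6, Tbx1 and Gata2 and below for Sox4, Pax1, Six5 and Lhx2.

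The Sox family is described by its subgroups. In SoxC (Sox4, Sox11 and Sox12), genes of progenitor and mesenchymal cells, Sox4 (chromosome 13, 28950730 to 28953682) read 80.1, 87.3 and 76.1 CPM in WT and 66.1, 75 and 59.1 CPM in cKO. WT 29 and cKO 10 were only about 1 CPM apart. The log2 fold change was -0.28 ± 0.09 (edgeR adjusted p = 0.0598), and it passed without cKO 10 (0.0258) and without the low-count filter (0.0425). It did not pass when any other library was omitted (adjusted p of 0.0906 to 0.175). The noncoding gene Gm26735 lies on the opposite strand over 54.6% of all exonic bases that GENCODE gives Sox4, so its reads could be among these. The share of the counted Sox4 gene model, 2953 bases long, was not computed. Sox11 was -0.21 ± 0.11 and Sox12 0.05 ± 0.12 (adjusted p = 0.231 and 0.832). In SoxF (Sox7, Sox17 and Sox18), genes of the endothelium, the values were -0.20 ± 0.09, -0.05 ± 0.10 and 0.07 ± 0.10, and none passed (adjusted p = 0.171, 0.773 and 0.66). Endothelial markers summed to 784 to 881 CPM in WT and 825 to 994 CPM in cKO, and 0 of 10 passed. Sox7, Sox17, Sox11 and the uneven members described next were chosen after their values were seen.

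Sox genes of cartilage were uneven between libraries. Sox9, the master factor of chondrocytes, read 26.8, 39.3 and 32.3 CPM in WT and 31.8, 33.1 and 12.6 CPM in cKO. The low value was cKO 37, the library with the lowest cartilage markers (2138 CPM against 8936 and 9442 in cKO 8 and cKO 10). WT 14 was the lowest WT library in both (4055 CPM of cartilage markers against 12101 and 8212 in WT 27 and WT 29). The log2 fold change of Sox9 was -0.35 ± 0.44 (edgeR adjusted p = 0.664), and -0.02 without cKO 37. Sox8, its relative, was also lowest in WT 14 and cKO 37, at 3.17 and 2.31 CPM against 4.81 to 5.64 CPM in the other 4 libraries. Sox5, which acts with Sox6 and Sox9 on cartilage genes, was lowest in the same 2 libraries, at 19 and 16.3 CPM against 20.6 to 30.2 CPM. Sox6 was lowest in cKO 37, at 54.4 CPM against 76.6 and 73.4 CPM in cKO 8 and cKO 10, but highest among the WT libraries in WT 14, at 70 CPM against 59.9 CPM in both others. The part of cartilage content in these values was not tested. Sox10, of Schwann cells and melanocytes, read 2.35, 5.41 and 2.7 CPM in WT and 2.5, 1.81 and 3.82 CPM in cKO. It was highest in WT 27, where Schwann cell markers were also highest (106 CPM against 56.9 to 78.8 CPM in the other libraries), and its part was not tested.

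The Iroquois genes Irx3 and Irx5 were among the steadiest members. Irx3 (chromosome 8, 91798511 to 91801654) read 54.2, 50.1 and 46.9 CPM in WT and 43, 48.5 and 49.7 CPM in cKO, and Irx5 (92357796 to 92361456) 33.2, 28.9 and 32 CPM in WT and 32.1, 32.4 and 34.4 CPM in cKO. Their log2 fold changes were -0.10 ± 0.08 and 0.07 ± 0.07 (edgeR adjusted p = 0.426 and 0.525), both with intervals inside 1.5-fold. The scarce cluster on chromosome 13 was uneven instead. Irx2 read 0.301, 1.86 and 0.718 CPM in WT and 1.34, 0.419 and 0.494 CPM in cKO, and Irx1 0.109, 0.573 and 0.391 CPM and 0.434, 0.161 and 0.182 CPM. Both neighbours were highest in WT 27 and, within cKO, in cKO 8. The fold change of Irx2 turned from -0.36 to 0.52 without WT 27.

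**Figure D4:**
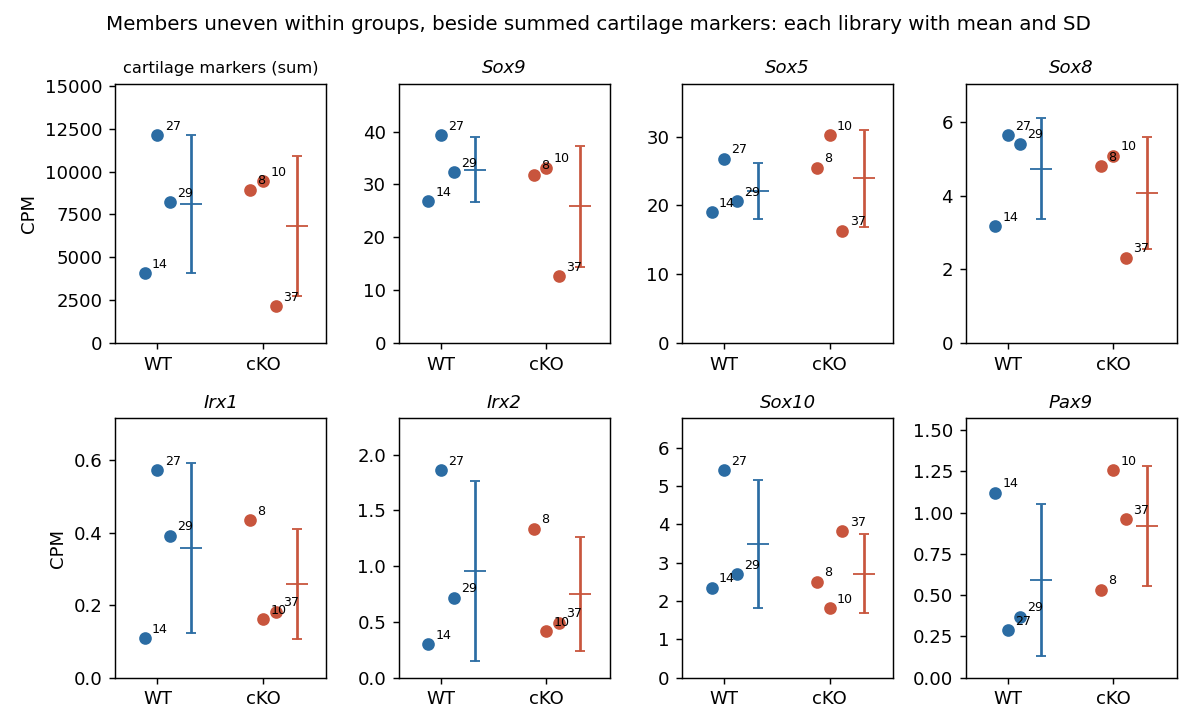
TMM-scaled CPM (vertical axes) in each library, marked by its number, for summed cartilage markers and for 7 members that were uneven within groups, with the mean and SD of each group (n = 3) beside the points. WT 14 and cKO 37 are the low libraries for cartilage markers, Sox9, Sox5 and Sox8, WT 27 and cKO 8 the high ones for Irx1 and Irx2, and WT 27 stands out for Sox10.

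The Meis genes, partners of Hox and Pbx proteins, lay near 0: Meis1 at -0.02 ± 0.11, Meis2 at 0.08 ± 0.09 and Meis3 at 0.05 ± 0.08 (edgeR adjusted p = 0.915, 0.611 and 0.7). Their intervals lay inside 1.5-fold, and the sign of Meis1 and Meis3 turned under some settings.

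The LIM-homeobox and Gata genes were low. Lhx6, a gene of the jaw mesenchyme and of forebrain interneurons, read 3.55, 4.09 and 3.78 CPM in WT and 5.24, 4.9 and 4.34 CPM in cKO (log2 0.34 ± 0.13, edgeR adjusted p = 0.113), with every cKO library above every WT one. Lhx2, known from the forebrain and hair follicle, had 16, 10 and 22 counts in WT and 6, 6 and 4 in cKO, which at 2 counts per unit is 2 to 11 units a library (-1.30 ± 0.53, adjusted p = 0.124). It passed the low-count filter through the WT libraries, the group in which it was higher. Gata2, of blood progenitors, mast cells and endothelium, read 2.38, 3.12 and 3.35 CPM in WT and 3.44, 4.74 and 3.56 CPM in cKO (0.40 ± 0.18, adjusted p = 0.161), and its log2 fold change was 0.24 without cKO 10 (adjusted p = 0.461). WT 29 and cKO 8 were almost equal. Endothelial markers were also highest in cKO 10, at 994 CPM, while mast cell markers were lowest of all 6 libraries there, at 17.3 CPM, within a range of up to 26.7 CPM; their part in the Gata2 values was not tested. Gata3, of T cells, had 20 to 56 counts a library (0.54 ± 0.43, adjusted p = 0.443, from 0.13 without cKO 10 to 1 without WT 27), and Gata1, of red blood cells, at most 6.

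Emx2, a gene of the forebrain, urogenital system and scapula, read 0.328 to 1.04 CPM in WT and 0.355 to 1 CPM in cKO (0.10 ± 0.47, adjusted p = 0.915). Pitx1 and Pitx3 had at most 4 counts in a library and Otx1 at most 14. Otx2 and Emx1 had 0 counts in all 6 libraries, as had Sox1 and Sox14.

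The 31 members too scarce to test had few reads in both groups. A member with enough counts in 3 libraries entered the tested set, as Irx1 and Pax3 did through cKO. A large gain in cKO would thus have taken a member out of the 31, so their sums cannot show whether silent members gained reads. Summed, the 31 had 92, 70 and 92 counts in WT and 80, 72 and 88 counts in cKO. Scaled to library size they summed to 1.26, 1 and 1 CPM in WT and 1.34, 1.16 and 1.14 CPM in cKO, against 656 to 745 CPM for the 46 tested members. The groups overlapped, WT 14 lying above cKO 10 and cKO 37. No untested member had more than 20 counts in a library, or an RPKM above 0.0645. In a library, 15 to 19 of the 31 had any count. Counts appeared in cKO alone for 4 members and in WT alone for 5. Among them the groups stood apart for Tbx22, a gene of the palate, with 0 counts in every WT library and 4, 4 and 8 in cKO, and for Pax5, of B cells, with 6, 4 and 2 in WT and 0 in every cKO library. Both were singled out after their values were seen. Each count of 4 is 2 units, and B lineage markers were 20.7 to 32.7 CPM in WT and 26 to 28.1 CPM in cKO. Lhx4 and Pax6 also stood apart, higher in cKO, with at most 12 and 8 counts. In all, 3 of the 31 stood apart above WT and 1 below. Among all tested genes, which are more abundant, 17.2% lay above and 17.4% below. No share over other genes too scarce to test is given here, nor one for counts in a single group alone. Irx4 had its only 8 counts in cKO 8. At this depth a low level in few cells was not detectable.

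Genes whose products work with these factors, and family relatives outside the naming rule, were read from 5 lists of 37 genes, of which 33 were tested. Both kinds are called partner genes below. With edgeR, 2 rose and 2 fell, 4 of 33 where 12.4% of all genes were called, and the median log2 fold change was 0.07. Among the TALE partners of Meis, Pbx2 rose from 33.1 ± 1.9 to 39.2 ± 0.676 CPM (0.24 ± 0.06, adjusted p = 0.03) and Pknox2 fell from 8.26 ± 1.29 to 6.09 ± 0.276 CPM (-0.44 ± 0.13, adjusted p = 0.0439). Among the LIM cofactors, Ldb1, the bridging protein of LIM-homeodomain complexes, rose from 100 ± 8.5 to 122 ± 5.05 CPM (0.28 ± 0.07, adjusted p = 0.0268), and Ssbp3, which binds and stabilises Ldb proteins, fell from 79.3 ± 3.07 to 65.9 ± 1.94 CPM (-0.27 ± 0.06, adjusted p = 0.0166). All 4 of these calls were lost without WT 14, without WT 29 or without cKO 8. Without cKO 10, of the 4 only Ssbp3 passed (0.0326), and without cKO 37 only Ssbp3 (0.0213) and Pbx2 (0.0472). Pknox2 was lost without any 1 library (0.0504 to 0.144), and also with upper-quartile scaling (0.0582) and limma voom (0.0699). No Eya or Dach gene, partners of the sine oculis homeobox proteins, passed (0 of 6), and no Gata cofactor (0 of 4) or relative outside the naming rule such as Lmx1b or Eomes (0 of 6).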

How the data were processed

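RNA-seq of 6 calvaria libraries was analysed, 3 labelled cKO and 3 labelled WT. Per the submitters' processing notes, bcl2fastq, TopHat2 2.0.6 and HTSeq were used on mm10; for parameters, annotation and strand: not given in the sources used here. The authors deposited raw counts of reads per gene, which entered every test unchanged, and RPKM values, used only to compare levels between genes.

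Tests used edgeR 4.0.16 (R 4.3.3), with filterByExpr with a minimum count of 10 (16089 genes kept), TMM factors (0.952 to 1.07), and the robust quasi-likelihood F test of cKO against WT over all kept genes, with Benjamini-Hochberg adjustment and a threshold of 0.05. CPM are TMM-scaled. Intervals are 95% intervals from that model. The steps were also run on counts simulated from the observed mean levels and the spread fitted by edgeR. Such counts follow the model by design, so that run does not test how well it fits these data.

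Alternatives were RLE and upper-quartile scaling, no filter, a mean CPM of at least 1, halved counts, DESeq2 1.42.0, limma voom (3.58.1), an adjusted p of 0.1 and omission of each library. Members and lists were chosen with earlier results of these data known. Named genes are members past the threshold, the 10 smallest p-values, the 2 highest of each family by RPKM, tested members within 2 Mb of the first 2 kinds, and partners past the threshold; others were chosen after their values were seen. For 2 members, single values are not reported here. Marker lists (120 genes, 14 cell types) were summed as CPM.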

Additional observations from a re-analysis of the deposited data

How the results depend on the processing

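The number of tested members called, 0 with edgeR, was also 0 with RLE factors, at a mean CPM of at least 1, on halved counts and with limma voom. It was 1 of 46 with upper-quartile factors (1 higher; 12.2% of all genes called), 2 of 73 without the low-count filter (1 higher, 1 lower; 10.7%), 4 of 46 with DESeq2 (2 higher, 2 lower; 15.5%) and 5 of 46 at an adjusted p of 0.1 (2 higher, 3 lower; 20.4%). Without 1 library it ranged from 0 to 2 of 47 to 49 tested (0 to 1 higher, 0 to 1 lower), while 3.59% (without cKO 8) to 12.2% (without cKO 37) of all genes were called. The number of partner genes called, 4, ranged from 0 to 4 without 1 library; it was 3 with limma voom, 5 at a mean CPM of at least 1 and on halved counts, 6 with DESeq2 and at an adjusted p of 0.1, and 4 with the other settings. Fewer members were tested at a mean CPM of at least 1 (33) and on halved counts (42).

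The sign of some members, none of them called, turned in some settings. With upper-quartile factors Meis1 was 0.0055 and Tbx15 0.0022. Without 1 library in turn the log2 fold changes ran as follows: Emx2 -0.23 to 0.57, Meis3 -0.025 to 0.11, Meis1 -0.095 to 0.045, Sox18 -0.028 to 0.15, Tbx2 -0.13 to 0.051, Tbx15 -0.11 to 0.018. The others ran as follows: Sox5 -0.093 to 0.33, Sox8 -0.45 to 0.057, Sox10 -0.69 to 0.10, Irx2 -1.06 to 0.52, Irx6 -0.048 to 0.26, Tbx3 -0.14 to 0.083, Tbx5 -0.061 to 0.42. The cause was not tested. No paired analysis was made, because the labels do not say which libraries of the 2 groups, if any, belong together. The 22 tested members under an RPKM of 1 had a median standard error of 0.42, and 31 members were too scarce to test. The parts of counting depth and of spread between libraries in that error were not tested.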
